A study of Mus musculus with 3 samples.

Results

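MiR-21a is a mouse microRNA (miRNA) made from 1 hairpin, which gives 2 mature strands, the 5p arm miR-21a-5p and the 3p arm miR-21a-3p. These 2 names were taken, by their identifiers mmu-miR-21a-5p and mmu-miR-21a-3p, out of 1915 mature miRNAs listed in each count table, of which 886 had a count in at least 1 library. The tables come from small RNA sequencing of exosomes, the small membrane vesicles that cells release, collected from cultures of bone-marrow-derived macrophages of adult wild-type C57BL/6 mice. Marrow cells received M-CSF, a growth factor of macrophages, during the first 24 h. They were then kept in medium with exosome-free serum, and after 72 h of culture the vesicles were pelleted by ultracentrifugation. There was 1 group of 3 libraries, replicates 1, 2 and 3, titled with an unexplained abbreviation (CHMP), and no treated or control group, so every comparison below is between the 3 libraries, between the 2 arms or between miR-21a and other miRNAs. Nothing in the labels ties a library to an animal or culture of its own. SDs therefore describe the spread of these libraries alone, and it may be technical. P-values also concern these libraries alone, and those of the chi-square tests below weigh differences against counting error only.

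A miRNA hairpin is cut to a short duplex, of which one strand, the guide, is loaded into an Argonaute protein while the other, the passenger, is mostly degraded. The guide finds its targets through the seed, bases 2 to 8. MiR-21a-5p is the guide of its hairpin, rises in macrophages after Toll-like receptor stimulation, and represses among others Pdcd4, a brake on translation. MiR-21a-3p is the passenger.

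The mature sequences are shown, with the seed in capitals, because the arms and the related names below are told apart by them alone. They are written 5′ to 3′ from RefSeq (GRCm38.p6).

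miR-21a-5p: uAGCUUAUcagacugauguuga

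miR-21a-3p: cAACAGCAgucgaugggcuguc

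miR-21b: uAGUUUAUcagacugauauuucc

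miR-21c: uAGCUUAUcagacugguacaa

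In GRCm38 the hairpin Mir21a lies on chromosome 11 at 86584067 to 86584158, minus strand, with miR-21a-5p at 86584120 to 86584141 and miR-21a-3p at 86584082 to 86584103. In the GENCODE M21 annotation it sits inside exon 12 of Vmp1, a protein-coding gene that acts in autophagy, within the untranslated part of that exon on the same strand. Each arm is 22 bases long, with a GC content of 36.4% for the 5p arm and 59.1% for the 3p arm. The seed of the 5p arm, AGCUUAU, was shared by 2 names in the RefSeq table, miR-21a-5p and miR-21c, and the seed of the 3p arm, AACAGCA, by miR-21a-3p alone. MiR-21b on chromosome 3 differs from miR-21a-5p at 4 of 22 positions compared, C4U, G18A, G21U and A22C, written as the base of miR-21a-5p, its position from the 5′ end and the base of miR-21b. The first of them lies in the seed. MiR-21c on chromosome 8 differs at 5 of 21 positions, A16G, G18A, U19C, U20A and G21A, all outside the seed.

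The related names held almost no counts. MiR-21b had 0, 3 and 1 counts in libraries 1, 2 and 3, and miR-21c had 0 counts in each. A count of 0 allows up to 0.997, 1.20 and 0.935 counts per 1000000 miRNA counts (CPM) in libraries 1, 2 and 3, taking 3 counts as the limit. How reads that match both miR-21a-5p and a relative were assigned is not stated in the labels.

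The 3 libraries held 3008995, 2489984 and 3208617 counts assigned to miRNAs, and between 651 and 735 miRNAs with a count. Library 1 stood apart from libraries 2 and 3, and results are therefore also given without it. Macrophage identity was checked on 5 miRNAs of myeloid cells, of which 4 had counts in every library, with a summed level of 523, 2342 and 1307 CPM in libraries 1, 2 and 3. The exception was miR-511-3p, with 10, 2 and 0 counts. The sum was lowest in library 1, as miR-21a-5p was, but the members differed. MiR-142a-3p was at 42.9, 1364 and 819 CPM and miR-142a-5p at 292, 818 and 390 CPM. MiR-223-3p was at 35.6, 52.6 and 33.0 CPM, and miR-342-3p was highest in library 1, at 149, 106 and 65.4 CPM. The part of the myeloid miRNAs in the level of miR-21a-5p was not tested. Defining miRNAs of other cells had lower sums than the myeloid list in each library with 1 exception, the liver miRNA miR-122-5p. It was at 322, 548 and 1500 CPM, the last above the myeloid sum of 1307 CPM in library 3. These lists hold 1 to 3 names against 5, so the sums favour the myeloid list. In library 1, miR-122-5p was above each single myeloid member, the highest being miR-142a-5p at 292 CPM. The stromal miR-199a-3p, at 223 CPM, was above every other myeloid member there. The red cell pair miR-451a and miR-486a-5p summed to 88.1, 26.9 and 15.6 CPM, the lymphoid miR-150-5p had 0, 0 and 1 counts, and the stromal list summed to 245, 139 and 134 CPM. The endothelial miR-126a-3p was at 21.6, 43.8 and 23.7 CPM. The epithelial list summed to 64.1, 433 and 265 CPM, so that its sum too was lowest in library 1, but its members differed. MiR-200b-3p was at 26.3, 204 and 108 CPM and miR-200c-3p at 20.3, 142 and 152 CPM. MiR-205-5p was lowest in library 3, at 17.6, 87.6 and 3.74 CPM. The part of the epithelial list in the level of miR-21a-5p was not tested. In pelleted vesicles, fewer vesicles of a cell type and less miRNA per vesicle cannot be told apart, and RNA that pelleted outside vesicles is included.

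The 5p arm was the most counted miRNA in libraries 2 and 3 and stood ninth in library 1. It had 112284 counts in library 1, 760138 in library 2 and 839015 in library 3. As a share of miRNA counts this was 3.73% in library 1 (Wilson 95% interval 3.71 to 3.75), 30.5% in library 2 (30.5 to 30.6) and 26.1% in library 3 (26.1 to 26.2). Libraries 2 and 3 lay close together and library 1 far below both, and the mean of 20.1% ± 14.4 (SD, n = 3) lay between them, at a level that no library had. Without library 1 the mean was 28.3%. The intervals cover counting error only, since the reads carry no molecular identifiers that the labels mention.

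Library 2 was 8.18-fold above library 1 for miR-21a-5p (95% counting interval 8.13 to 8.23), and library 3 was 7.01-fold above it (6.96 to 7.05). With TMM factors, which scale libraries on the bulk of miRNAs, these folds were 12.5 and 12.7, and in the authors' normalized values, counts per 1000000 of a larger denominator (RPM), they were 6.79 and 7.50. The low level of library 1 thus held under each scaling. The order of libraries 2 and 3 did not: library 3 was at 0.857 of library 2 in CPM and at 1.10, 1.02 and 1.003 of it in RPM, with TMM factors and with DESeq2 size factors. A chi-square test of the 3 counts against the 3 miRNA totals called the 5p arm different among the libraries at an adjusted p below 0.05, as it did 318 of 353 miRNAs tested (90.1%). Without library 1, 177 miRNAs were called, miR-21a-5p among them. The number tested in that setting is not given here, so this count has no share beside it.

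The 3p arm was rare but present in every library. It had 37, 61 and 154 counts in libraries 1, 2 and 3, which is 12.3 CPM (Wilson 95% interval 8.92 to 16.9), 24.5 CPM (19.1 to 31.5) and 48.0 CPM (41.0 to 56.2). Its mean was 28.3 ± 18.1 CPM (SD, n = 3), or 36.2 CPM without library 1. The 3 intervals did not overlap, and library 1 was lowest, as for the 5p arm, but library 3 and not library 2 was highest. Library 2 was 1.99-fold above library 1 (95% counting interval 1.30 to 3.08), library 3 was 3.90-fold above library 1 (2.71 to 5.75) and 1.96-fold above library 2 (1.45 to 2.68). Library 3 also stood above library 2 in RPM (2.52-fold), with TMM factors (2.33-fold) and with DESeq2 size factors (2.29-fold). The 3p arm too differed among the libraries in the chi-square test (adjusted p = 8.15e-16, Benjamini-Hochberg over 353 miRNAs).

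**Figure D1:**
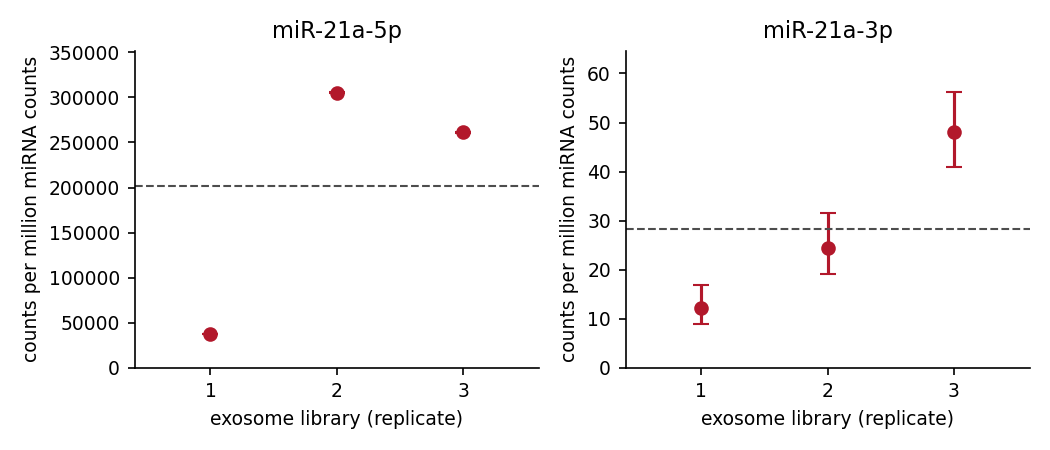
Level of miR-21a-5p (left) and miR-21a-3p (right) in each exosome library, in counts per 1000000 miRNA counts. Points are libraries, bars are Wilson 95% intervals for counting error (smaller than the points on the left), and the dashed line is the mean of the 3 libraries. The 5p arm sits at 37316 CPM in library 1 and at 305278 and 261488 CPM in libraries 2 and 3, and the 3p arm at 12.3, 24.5 and 48.0 CPM.

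Within the hairpin the 5p arm outnumbered the 3p arm in every library. There were 3035 counts of the 5p arm per count of the 3p arm in library 1 (exact binomial 95% interval 2202 to 4310), 12461 in library 2 (9701 to 16291) and 5448 in library 3 (4652 to 6423). Put the other way, the 3p arm made up 32.9, 8.02 and 18.4 of 100000 hairpin counts in libraries 1, 2 and 3. The log2 ratio of 5p to 3p averaged 12.53 ± 1.02 (SD, n = 3). In edgeR's quasi-likelihood test with library and arm as terms, the fitted log2 ratio was 12.52 with a standard error of 1.02 and an adjusted p of 8.34e-27 over 157 hairpins. Unequal arms were the rule, since 126 of the 157 hairpins (80.3%) passed the test, 65 with the 5p arm above the 3p arm (41.4%) and 61 with the 3p arm above. Leaving out library 1, 2 or 3 gave fitted ratios of 13.00, 11.99 and 12.59 on the log2 scale, with adjusted p-values from 4.43e-23 to 7.10e-09.

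Few hairpins had a larger excess of the 5p arm. MiR-21a ranked 5 among the 157 by fitted log2 ratio, after miR-146a at 15.70, miR-99a at 15.04, miR-122 at 14.15 and miR-192 at 13.92. The last 2 had 0 counts of the 3p arm, so their fitted values depend on the prior count that edgeR adds. MiR-146a-3p, the passenger of a miRNA that restrains Toll-like receptor signalling, had 0, 6 and 1 counts beside 100503, 87180 and 117251 counts of miR-146a-5p. Summed over the libraries, the minor arm of miR-21a made up 14.7 of 100000 hairpin counts. Only miR-146a and miR-99a had a lower share among the hairpins whose minor arm was counted at all. For the 24 hairpins with a minor arm at 0 counts, the depth was too small to place any of them below miR-21a by the limit of 3 counts. The 5 hairpins nearest to miR-21a in fitted ratio were let-7g (12.30), let-7i (12.25), miR-20a (12.02), miR-7b (11.93) and miR-374b (11.77), of which miR-7b and miR-374b had 0 counts of the 3p arm.

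The arm ratio of miR-21a was not the same in the 3 libraries. At 1 common ratio, 16.5, 112 and 124 counts of the 3p arm would be expected in libraries 1, 2 and 3, against 37, 61 and 154 observed. Libraries 1 and 3 lay above that and library 2 below it, and the exact intervals of the 3 ratios did not overlap. A chi-square test of the arm counts called this difference (adjusted p = 1.33e-12), and it does not depend on how libraries are scaled, because both arms come from the same library. Such differences were common: 76 of 81 hairpins tested (93.8%) were called, and 43 without library 1, where the number tested is not given here. The ratio of miR-21a spanned 4.11-fold, or 2.04 on the log2 scale, against a median of 2.25 over the 81 hairpins, 46 of which had a wider span. Without library 1 the span was 2.29-fold, without library 2 it was 1.80-fold, and both remained past the threshold, with adjusted p-values of 1.03e-07 and 0.00188.

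**Figure D2:**
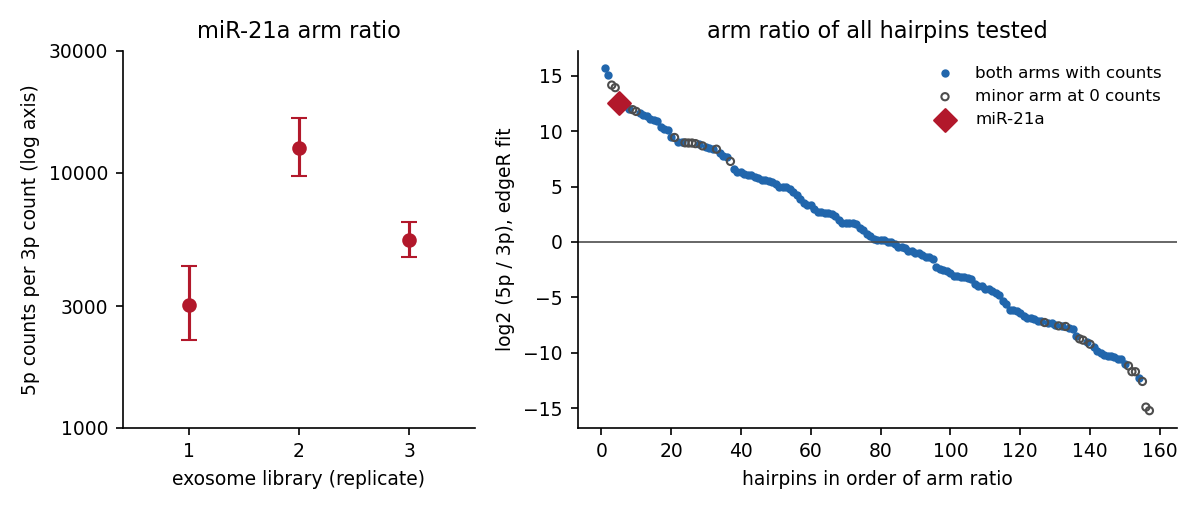
Left, 5p counts per 3p count of miR-21a in each library on a log axis, with exact binomial 95% intervals. Right, fitted log2 ratio of 5p to 3p for the 157 hairpins tested, in order of the ratio, with hairpins whose minor arm had 0 counts as open circles; miR-21a (diamond) has rank 5 in 5p excess, at 12.52.

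Because miR-21a took so unequal a part of the libraries, its counts also moved the apparent share of every other miRNA. Both arms together took 3.73%, 30.5% and 26.2% of miRNA counts in libraries 1, 2 and 3, nearly all of it as the 5p arm. Leaving them out of the total raised the share of each other miRNA by 3.88% in library 1, 43.9% in library 2 and 35.4% in library 3, as a proportion of its own value. In the authors' RPM the same step would raise other miRNAs by 0.806%, 5.74% and 6.38%, since miRNAs fill only 21.4%, 17.8% and 22.9% of that denominator. The effect on other miRNAs is therefore tied to scaling on miRNA counts and is small in the authors' values.

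With miR-21a left out, miR-99a-5p headed library 1, and let-7i-5p, a member of the growth-repressing let-7 family, headed libraries 2 and 3. MiR-99a-5p took 17.8%, 9.89% and 6.88% of the remaining counts in libraries 1, 2 and 3, against 17.2%, 6.87% and 5.08% of all miRNA counts. Let-7i-5p took 5.78%, 10.7% and 14.1% of the remaining counts, against 5.56%, 7.42% and 10.4% of all. Let-7f-5p took 0.486%, 10.4% and 9.01% of the remaining counts, against 0.468%, 7.25% and 6.65% of all. The gap of library 1 to the others thus narrowed for miR-99a-5p and widened for both let-7 members, which are higher in libraries 2 and 3.

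Mean shares rose for the remaining 7 of the 10 most abundant other miRNAs too. MiR-146b-5p averaged 5.93% of the remaining counts against 4.35% of all, miR-7a-5p 5.37% against 3.97%, miR-27b-3p 4.52% against 3.74% and miR-146a-5p 4.49% against 3.50%. MiR-24-3p averaged 3.49% against 3.03%, let-7g-5p 3.44% against 2.61% and miR-30d-5p 3.23% against 2.76%. With miR-21a left out, let-7g-5p came before miR-30d-5p, and with it left in miR-30d-5p came first, although each gap was far smaller than the spread between libraries. Libraries 2 and 3 were spread over more miRNAs once miR-21a was set aside. In them, 36 and 31 miRNAs made up 90% of the remaining counts, against 30 and 26 for all counts, whereas library 1 needed 34 against 35.

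**Figure D3:**
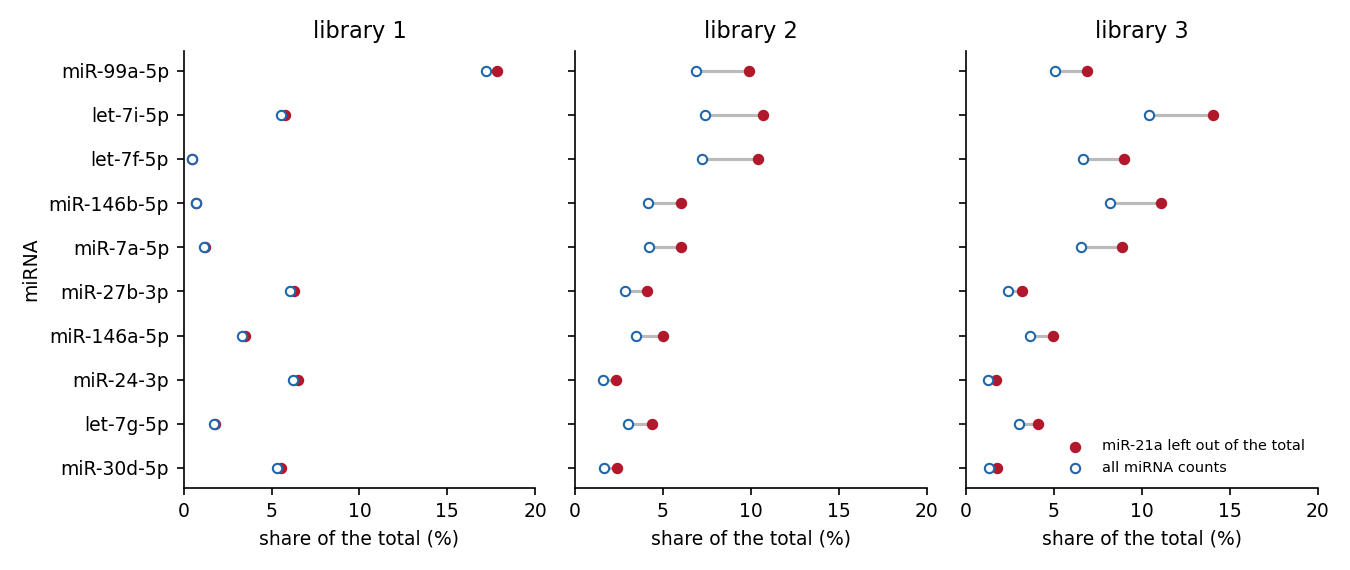
Shares of the 10 most abundant other miRNAs in each library, with both arms of miR-21a left out of the total (filled) and with all miRNA counts (open). The circles lie almost on each other in library 1, where shares rose by 3.88%, and apart in libraries 2 and 3, where they rose by 43.9% and 35.4%.

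Ratios of miR-21a-5p to single miRNAs need no total, and they showed the same gap. Per count of miR-99a-5p there were 0.217 counts of miR-21a-5p in library 1 against 4.44 and 5.15 in libraries 2 and 3. Per count of miR-146a-5p there were 1.12 in library 1 against 8.72 and 7.16 in libraries 2 and 3. Library 1 was the lowest for 8 of the 10 miRNAs. The 2 exceptions were let-7f-5p, with 7.98 counts of miR-21a-5p per count in library 1 against 4.21 and 3.93 in libraries 2 and 3, and miR-146b-5p, with 5.37 against 7.30 and 3.20. Both of these were themselves far lower in library 1.

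How the total acts on comparisons between libraries was followed over the 133 other miRNAs whose mean CPM reached 100. Leaving out miR-21a shifted all log2 ratios between libraries 1 and 2 (1 over 2) by -0.47. The shift was -0.38 for library 1 over library 3 and 0.088 for library 2 over library 3. The median ratio of library 1 to library 2 was 0.19 without miR-21a against 0.66 with it, and that of library 1 to library 3 was 0.58 against 0.97. More than 2-fold apart were 66 miRNAs without miR-21a against 74 with it between libraries 1 and 2, and 81 against 92 between libraries 1 and 3. Between libraries 2 and 3, where the miR-21a shares were close, 39 were that far apart without miR-21a against 36 with it. The balance of directions changed more than the number. Between libraries 1 and 2, 32 miRNAs were more than 2-fold higher in library 1 and 34 lower when miR-21a was left out, against 48 higher and 26 lower with it.

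The sign of the ratio turned for 12 miRNAs between libraries 1 and 2, for 5 between libraries 1 and 3 and for 4 between libraries 2 and 3. One of the 12 was miR-125a-5p, at 1067 and 1379 CPM of the remaining counts in libraries 1 and 2 against 1027 and 958 CPM of all counts. The SD over the 3 libraries on the log2 scale was smaller without miR-21a for 83 of the 133 miRNAs and larger for 50, with a median of 0.85 against 0.93. The chi-square test called 312 of 351 miRNAs (88.9%) without miR-21a, against 318 of 353 with it.

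No other single miRNA had so large an effect among the 9 others tried, those that with miR-21a-5p are the 10 most abundant of all counts. Leaving out miR-99a-5p alone, the next in effect, gave shifts of 0.17 for library 1 over library 2 and 0.20 for library 1 over library 3, in the opposite direction. For the remaining 8 the shift of library 1 to library 2 lay between -0.10 for let-7f-5p and 0.070 for miR-24-3p. TMM factors act on top of the totals they are computed with. On all miRNA counts they moved the log2 ratios of library 1 to library 2 by -0.61. Computed without miR-21a, they moved them by a further -0.15 beyond the -0.47 from the change of total. For library 1 to library 3 the TMM shift was -0.86 on all counts. Without miR-21a it was a further -0.49 beyond the -0.38 from the change of total. TMM-scaled ratios were thus nearly the same with miR-21a and without it.

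**Figure D4:**
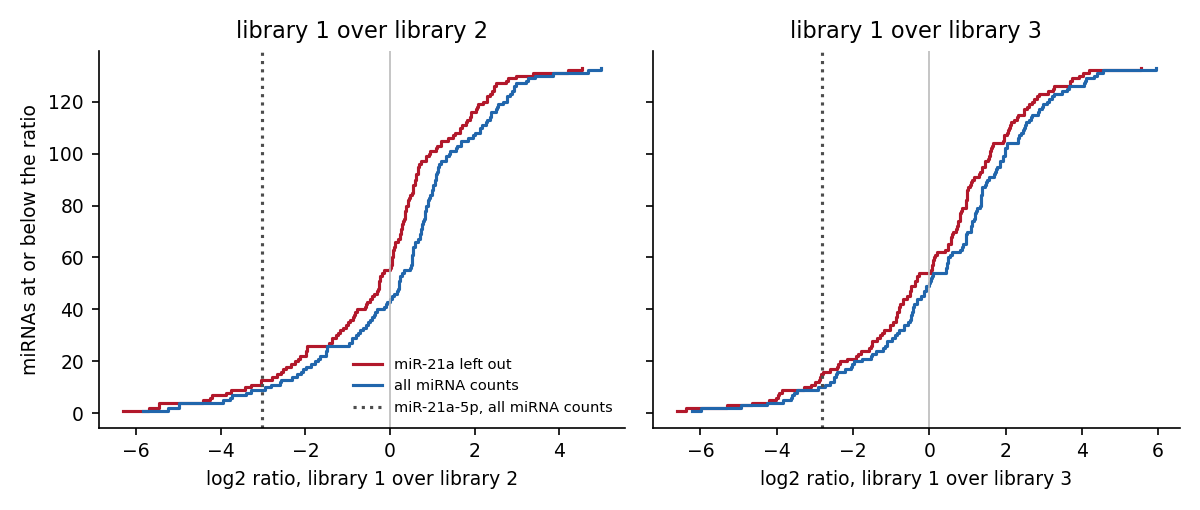
Number of the 133 other miRNAs at or below each log2 ratio of library 1 to library 2 (left) and to library 3 (right), with miR-21a left out of the totals and with all miRNA counts. The curve without miR-21a lies to the left by 0.47 and 0.38, and the dotted line marks miR-21a-5p at -3.03 and -2.81.

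MiR-21a-5p was itself among the miRNAs with the lowest ratios of library 1 to libraries 2 and 3. Its log2 ratio of library 1 to library 2 was -3.03, with 9 of the 133 others below it, and its ratio of library 1 to library 3 was -2.81, with 10 below it. The ratio of library 2 to library 3, 0.22, lay in the middle, with 71 others below. Its SD over the 3 libraries was 1.69 on the log2 scale, exceeded by 23 of the 133. MiR-21a-3p, with an SD of 0.98, was near their median of 0.93. Its mean of 28.3 CPM is below the 100 CPM that those miRNAs reached, so its SD is set beside an unlike set.

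The miRNAs whose profile over the 3 libraries lay nearest to that of miR-21a-5p were found by the root mean square distance of log2 levels, each centred on its own mean and scaled to the totals without miR-21a. This is a description over 3 points that share their libraries. The nearest were miR-200c-3p at a distance of 0.14, miR-96-5p at 0.19, miR-182-5p at 0.19, miR-26a-5p at 0.29 and miR-200b-3p at 0.34. The farthest were miR-2137 at 3.97, miR-1957a at 3.52, miR-484 at 3.30, miR-326-3p at 3.25 and miR-1198-5p at 3.07. The ranking covered the 133 others whose mean CPM reached 100, so a miRNA could enter through the libraries where it was high. In libraries 2 and 3, miR-2137 was at 56.2 and 29.3 CPM, miR-1957a at 12.9 and 15.6 and miR-326-3p at 46.2 and 18.7. In library 1, miR-200c-3p was at 20.3 CPM, miR-200b-3p at 26.3 and miR-96-5p at 96.7. The other members, miR-484, miR-1198-5p, miR-182-5p and miR-26a-5p, were above 100 CPM in every library. Sequences of both sets are shown, as RefSeq gives them with seeds in capitals, because the sets differ in base composition. MiR-1957a is named only.

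miR-200c-3p: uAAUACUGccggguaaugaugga

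miR-200b-3p: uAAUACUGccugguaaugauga

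miR-96-5p: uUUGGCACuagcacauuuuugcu

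miR-182-5p: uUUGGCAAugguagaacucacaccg

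miR-26a-5p: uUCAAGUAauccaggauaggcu

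miR-2137: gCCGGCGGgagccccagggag

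miR-484: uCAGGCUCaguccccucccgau

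miR-326-3p: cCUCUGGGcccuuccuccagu

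miR-1198-5p: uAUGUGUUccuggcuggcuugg

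MiR-200c-3p and miR-200b-3p, best known from epithelial cells, share the seed AAUACUG. MiR-96-5p and miR-182-5p lie on chromosome 6, at 30169506 to 30169528 and at 30165962 to 30165986, minus strand in GRCm38. MiR-183-5p, of the same cluster, did not share the profile and came 40th, at a distance of 1.34. None of the 5 nearest shares a seed with miR-21a-5p, but no ranked miRNA with a RefSeq sequence could. MiR-21c, the only other name with that seed in the RefSeq table, had 0 counts in each library. In CPM of the remaining counts, miR-182-5p was at 1110, 9272 and 9575 in libraries 1, 2 and 3, and miR-26a-5p was at 1181, 8207 and 8680. MiR-96-5p was at 100.5, 1369 and 798 and miR-200c-3p at 21.1, 204 and 206, so miRNAs of very different abundance had this profile. The farthest miRNAs ran the other way, with miR-484 at 5451, 523 and 357 and miR-2137 at 1867, 80.9 and 39.7 CPM of the remaining counts.

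The nearest miRNAs were poorer in G and C than the farthest. Their GC content ran from 36.4% to 48.0% with a median of 40.9%, and that of the 4 farthest with a sequence from 54.5% to 85.7% with a median of 65.2%. Entry to either set depended on the minimum of the mean CPM, and the part of that minimum in this contrast was not tested. Over the 118 of 133 other miRNAs matched to a RefSeq sequence (88.7%), the GC content and the log2 ratio of library 1 to the mean of libraries 2 and 3 correlated at 0.54 (Pearson) and 0.51 (Spearman). Between libraries 2 and 3 the same correlations were -0.061 and -0.042. MiRNAs are not independent replicates, and all points share the same 3 libraries, so these are descriptions. Scaled to totals without miR-21a, 18 of 27 miRNAs with a GC content under 40%, where miR-21a-5p also falls, were lower in library 1. Their median log2 ratio was -1.31. Of 60 with a GC content of 40% to 50%, 25 were lower. Of 31 with more than 50%, 9 were lower, with a median of 1.36. These bands together cover the 118 matched miRNAs. The part of base composition in the low level of miR-21a-5p in library 1 was not tested. The 3p arm, at 59.1% GC, was also lower in library 1 than in libraries 2 and 3.

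**Figure D5:**
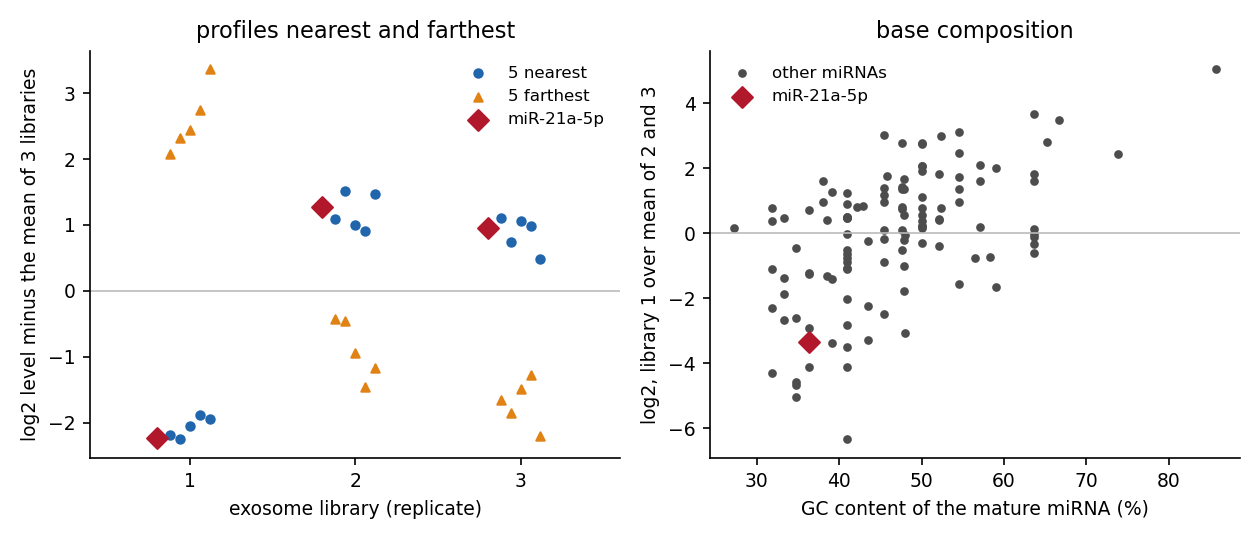
Left, log2 level of miR-21a-5p (diamonds), the 5 nearest miRNAs (circles) and the 5 farthest (triangles) in each library, minus the mean of the 3 libraries, with totals without miR-21a. Right, GC content of the 118 matched miRNAs against their log2 ratio of library 1 to the mean of libraries 2 and 3, also with totals without miR-21a. MiR-21a-5p lies at 36.4% and -3.35.

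Other miRNAs that Toll-like receptor signalling raises in macrophages did not all share the profile of miR-21a-5p. All 11 on the list had counts in every library, and for 6 of them (miR-146a-5p, miR-146b-5p, miR-155-5p, miR-9-5p, miR-99b-5p and let-7e-5p) library 1 had the lowest level, both with miR-21a left out of the total and with it. This leaves aside miR-147-3p, with 1 count in each library, whose order follows the totals alone. Over the 133 miRNAs with a mean of 100 CPM or more, library 1 was lowest for 45 (33.8%) without miR-21a, against 40 (30.1%) with it, but 4 of the 11 members are below that mean. All 10 members with enough counts for the chi-square test were called different among the libraries, beside 90.1% of all miRNAs tested.

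MiR-155-5p, which promotes inflammatory responses, was at 77.7, 3438 and 1123 CPM of the remaining counts in libraries 1, 2 and 3. Let-7e-5p was at 14.8, 1189 and 1228 and miR-146b-5p at 7220, 60183 and 110619. These 3 followed miR-21a-5p in being far lower in library 1. MiR-146a-5p was at 34696, 50399 and 49485 CPM of the remaining counts, a 1.45-fold gap of library 2 to library 1, against 33401, 35012 and 36543 CPM of all counts. Its coefficient of variation was 19.6% without miR-21a against 4.49% with it, and that of miR-99b-5p 22.2% against 7.40%. Their evenness in CPM thus depended on miR-21a being in the total.

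The remaining members were low or ran otherwise. MiR-132-3p was at 172, 132 and 162 CPM of the remaining counts, miR-212-3p at 19.3, 15.6 and 13.1 and miR-187-3p at 10.7, 3.47 and 2.11, none of them lower in library 1. MiR-125a-5p was at 1067, 1379 and 610 CPM of the remaining counts, lowest in library 3. MiR-9-5p was at 5.87, 15.6 and 19.0, while miR-147-3p was counted once per library, with 1 count. Counts of miR-21a-5p were 0.806 times the sum of the list in library 1, 3.54 times in library 2 and 2.08 times in library 3.

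Of 7 miRNAs known as abundant in serum and vesicle preparations, 1, miR-122-5p, had its lowest level in library 1, without miR-21a and with it. The share over the 133 miRNAs was 33.8% without miR-21a and 30.1% with it, and nothing particular to this short list is read from its count. MiR-92a-3p was at 43206, 10218 and 19864 CPM of the remaining counts in libraries 1, 2 and 3. MiR-16-5p was even, at 4474, 4361 and 4026, with a coefficient of variation of 5.44% without miR-21a against 22.0% with it. MiR-320-3p was at 2127, 1179 and 2677 and miR-423-5p at 652, 552 and 2259. Counts of miR-21a-5p were 0.762, 25.6 and 11.5 times the sum of this list in libraries 1, 2 and 3. Library 1 was again the lowest.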

How the data were processed

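Each library has a table of 1915 mature miRNAs. Beside each miRNA the authors deposited its count, a whole number, and a normalized value, here called RPM. Per the labels' protocols, RNA was extracted with TRIzol and libraries were made with the NEBNext small RNA kit. Per the submitters' processing notes, bcl2fastq, BWA and mm10 are the tools and build named (no versions). Trimming, mismatch limits and the assignment of ambiguous reads are not given in the sources used here. As worked out from the deposited columns, RPM divides counts by 14047692, 13995845 and 14002577 in libraries 1, 2 and 3. Here counts were divided by each library's miRNA total (CPM), with and without both arms of miR-21a.

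Arms were paired by name (749 pairs) and tested with edgeR 4.0.16 (quasi-likelihood, R 4.3.3) where the summed count reached 60, with library and arm as terms and Benjamini-Hochberg adjustment; DESeq2 1.42.0 was an alternative. Standard errors are the fitted log2 ratio divided by the square root of F. Chi-square tests (SciPy 1.17.1) compared the 3 counts with the totals (summed count of at least 30), and the arm counts among libraries (summed count of at least 60, expected counts of at least 5). They test counting error only and compare these libraries, not conditions. The tests were run on simulated data beforehand. Alternatives were other scalings, other count minimums and leaving out each library.

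The members and lists were chosen with earlier results of these data known. Named miRNAs are both arms, their seed and name relatives, the 10 most abundant others, the 5 nearest and 5 farthest profiles, the 5 nearest arm ratios and the members of the lists. RefSeq sequences matched 1623 of 1915 names.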

Additional observations from a re-analysis of the deposited data

How the results depend on the processing

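The excess of miR-21a-5p over miR-21a-3p kept its direction and its call under each alternative run, with a fitted log2 ratio of 11.99 to 13.00 when 1 library was left out. The replicate block, which ties the arms of 1 library, is part of that fit, and with no replicate block the log2 ratio was 12.80 and 126 hairpins were called, as with it. No pairing across groups was possible because there was 1 group. The mean level was 149402 to 283383 CPM for miR-21a-5p and 18.4 to 36.2 CPM for miR-21a-3p when 1 library was left out. In the authors' RPM the means were 40741 and 6.00, on the larger denominator. The count of miRNAs that differ among the libraries was 177 without library 1 and up to 284 without another, and 168 with a summed count of at least 300, where fewer were tested. Hairpins whose arm ratio differs numbered 43 without library 1 and up to 68 without another. The numbers tested in these settings are not given here. These counts of miRNAs and hairpins therefore have no shares beside them, and nothing about library 1 is read from them.

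Without miR-21a, 139, 163 and 83 other miRNAs were more than 2-fold apart (libraries 1 and 2, 1 and 3, 2 and 3) at a mean of at least 10 CPM, and 30, 40 and 18 at 1000 CPM, as more or fewer entered. Keeping miR-21a in the total, an alternative chosen after seeing the data, is described above.

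Leaving out another miRNA instead gave these shifts of the log2 ratio of library 1 to 2, 1 to 3 and 2 to 3. They were 0.17, 0.20 and 0.028 for miR-99a-5p, -0.029, -0.076 and -0.047 for let-7i-5p, and -0.10, -0.093 and 0.0092 for let-7f-5p. For miR-146b-5p they were -0.052, -0.11 and -0.061, for miR-7a-5p -0.045, -0.081 and -0.036, and for miR-27b-3p 0.048, 0.055 and 0.0073. For miR-146a-5p they were -0.0024, -0.0047 and -0.0023, for miR-24-3p 0.070, 0.075 and 0.0054, and for miR-30d-5p 0.055, 0.060 and 0.0053.

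Depth limits the precision of the 3p arm, at 37 to 154 counts a library.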
